A study of Mus musculus with 12 samples.

Results

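The circadian clock was followed through 10 of its genes in the cortex of lupus-prone mice, where their signal can serve as a check on whether the groups and the single mice were sampled at a like point of the daily cycle. The members were every probe, other than control spots, that carries the name Clock, Arntl, Per1, Per2, Per3, Cry1, Cry2, Nr1d1, Dbp or Bhlhe41 on the arrays. These were 15 probes of the 39429 on the array, for 10 of its 29608 gene names. After a filter on weak and marked spots, 13 of the 15 probes remained, and each of the 10 genes kept at least 1. One of the probes lost was a second probe of Per1, under 2 times its local background in 2 of the 12 samples. The other was a second probe of Bhlhe41, under that limit in 6 samples and well above background in 0 mice.

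Each group held 4 adult female mice. MRL/lpr mice carry the lpr defect of the Fas gene on the MRL background and develop a lupus-like autoimmune disease, Fn14ko mice are MRL/lpr mice that also lack the TWEAK receptor Fn14 (gene Tnfrsf12a), and MRL/+ mice share the background without the lpr defect. By the study's methods the mice were about 12 weeks old, in diestrus, kept on a 12:12 h light and dark cycle and killed within a 2-week span. The hour of killing is not given in the sources used here. MRL/lpr and Fn14ko mice came from 1 colony as littermates, and MRL/+ mice came from another supplier.

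Each array compared 2 mice of one group, the odd-numbered mouse in Cy3 and the even-numbered one in Cy5. All arrays of a group were on the same slide and in the same scan session, so group, slide and session cannot be told apart. MRL/+ replicates 2 and 4, both in Cy5, stood apart from the other 10 samples. Their spots well above background came to 35.0% and 21.2%, against at least 56.6% elsewhere, and their dark control spots reached 6.12 and 6.31 times the local background, against 1.13 to 2.65 elsewhere. Tnfrsf12a averaged 1.68 in MRL/lpr mice, 0.694 in Fn14ko mice and 1.11 in MRL/+ mice, and it was lower in Fn14ko than in MRL/lpr mice (log2 difference 1.27, limma adjusted p = 0.0035), while against MRL/+ the Fn14ko difference of -0.67 was not called (adjusted p = 0.11). Fas, the gene of the lpr defect, was called in none of the 3 comparisons. Of the markers of cortical excitatory neurons, 6 of 6 genes were measured, with a summed signal of 83.1 to 133.9 over the 12 mice. Fewer cells of a type and less RNA per cell cannot be told apart in such tissue samples.

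The mammalian clock is a transcriptional loop. CLOCK and BMAL1, the product of Arntl, bind E-boxes as a pair and switch on the Period and Cryptochrome genes, Nr1d1, Dbp and Bhlhe41. PER and CRY proteins then return to the nucleus and inhibit the pair, while NR1D1 (REV-ERB alpha) represses Arntl, which therefore peaks nearly opposite to Nr1d1 and Dbp. Forebrain tissue outside the suprachiasmatic nucleus carries this rhythm too, and there Per1 also answers to neuronal activity and to corticosteroids.

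Sequence upstream of the start site was searched for the elements through which the loop acts, in RefSeq promoters of build GRCm38.p6, which hold 9 of the 10 members in 13 entries. Both strands of the 250 bases before each start site were read. The E-box CACGTG, the site of the CLOCK and BMAL1 pair, occurred upstream of 3 members, Per1, Cry1 and Bhlhe41, and in 6.02% of the 32851 promoters in the table. The D-box, bound by DBP and its relatives (searched as TTATGTAA or TTACGTAA), occurred upstream of Per3 and in 0.931% of all promoters. The half-site AGGTCA, bound by ROR and REV-ERB receptors, occurred in 1 entry each of Clock and Per1 and in 14.0% of all promoters, and the cAMP response element TGACGTCA in 0 of the 13 entries and in 1.55% of all. The windows with an E-box or a D-box are shown on the gene's own strand because they hold members that rose, fell or did neither, with the element in capitals.
Per1 (chr11:69098726-69098845, plus strand): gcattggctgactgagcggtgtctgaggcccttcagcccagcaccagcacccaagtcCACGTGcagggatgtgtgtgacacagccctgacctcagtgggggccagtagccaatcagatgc
Bhlhe41 (chr6:145865511-145865630, minus strand): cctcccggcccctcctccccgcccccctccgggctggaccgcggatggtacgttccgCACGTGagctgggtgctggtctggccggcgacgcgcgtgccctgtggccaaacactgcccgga
Cry1 (chr10:85185055-85185171, minus strand): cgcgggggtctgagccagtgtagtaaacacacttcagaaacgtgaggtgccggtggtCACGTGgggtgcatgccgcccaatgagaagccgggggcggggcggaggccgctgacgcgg
Per3 (chr4:151044759-151044915, minus strand): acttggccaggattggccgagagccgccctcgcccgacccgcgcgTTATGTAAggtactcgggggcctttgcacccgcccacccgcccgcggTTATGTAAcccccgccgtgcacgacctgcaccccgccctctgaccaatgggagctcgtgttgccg
The E-box of Per1 begins 166 bases before its start site, that of Bhlhe41 153 and that of Cry1 60, and the pair of D-boxes of Per3 begin 205 and 158 bases before it.

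In MRL/lpr against MRL/+ cortex, Per1 and 1 of 2 probes each of Cry2 and Dbp were higher and Bhlhe41 was lower, while Clock, Per2, Per3, Cry1, Nr1d1 and Arntl did not pass the test. A probe was called when its limma p-value, adjusted over all 22419 tested probes, was under 0.05. By that rule 4 of the 13 clock probes were called, against 15.0% of all probes. The count was 0 without the Cy5 mice of MRL/+, 1 in the Cy3 mice alone (Per1) and 2 with Agilent's processed signal, beside 5.08%, 8.24% and 17.7% of all probes under the same settings. The 3 higher calls stand beside 5.69% of all probes called higher and the single lower call beside 9.30% called lower. The groups did not overlap for 4 of the 13 probes, against 24.8% of all probes. The median log2 difference of the 13 probes was 0.68, and that of all probes -0.15. Of all calls 38.0% were higher, against 22.1% with the 75th percentile and 25.1% with loess scaling. Signals below are linear, in multiples of the median retained spot of the same mouse, and cannot be set against each other between probes.

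**Figure D1:**
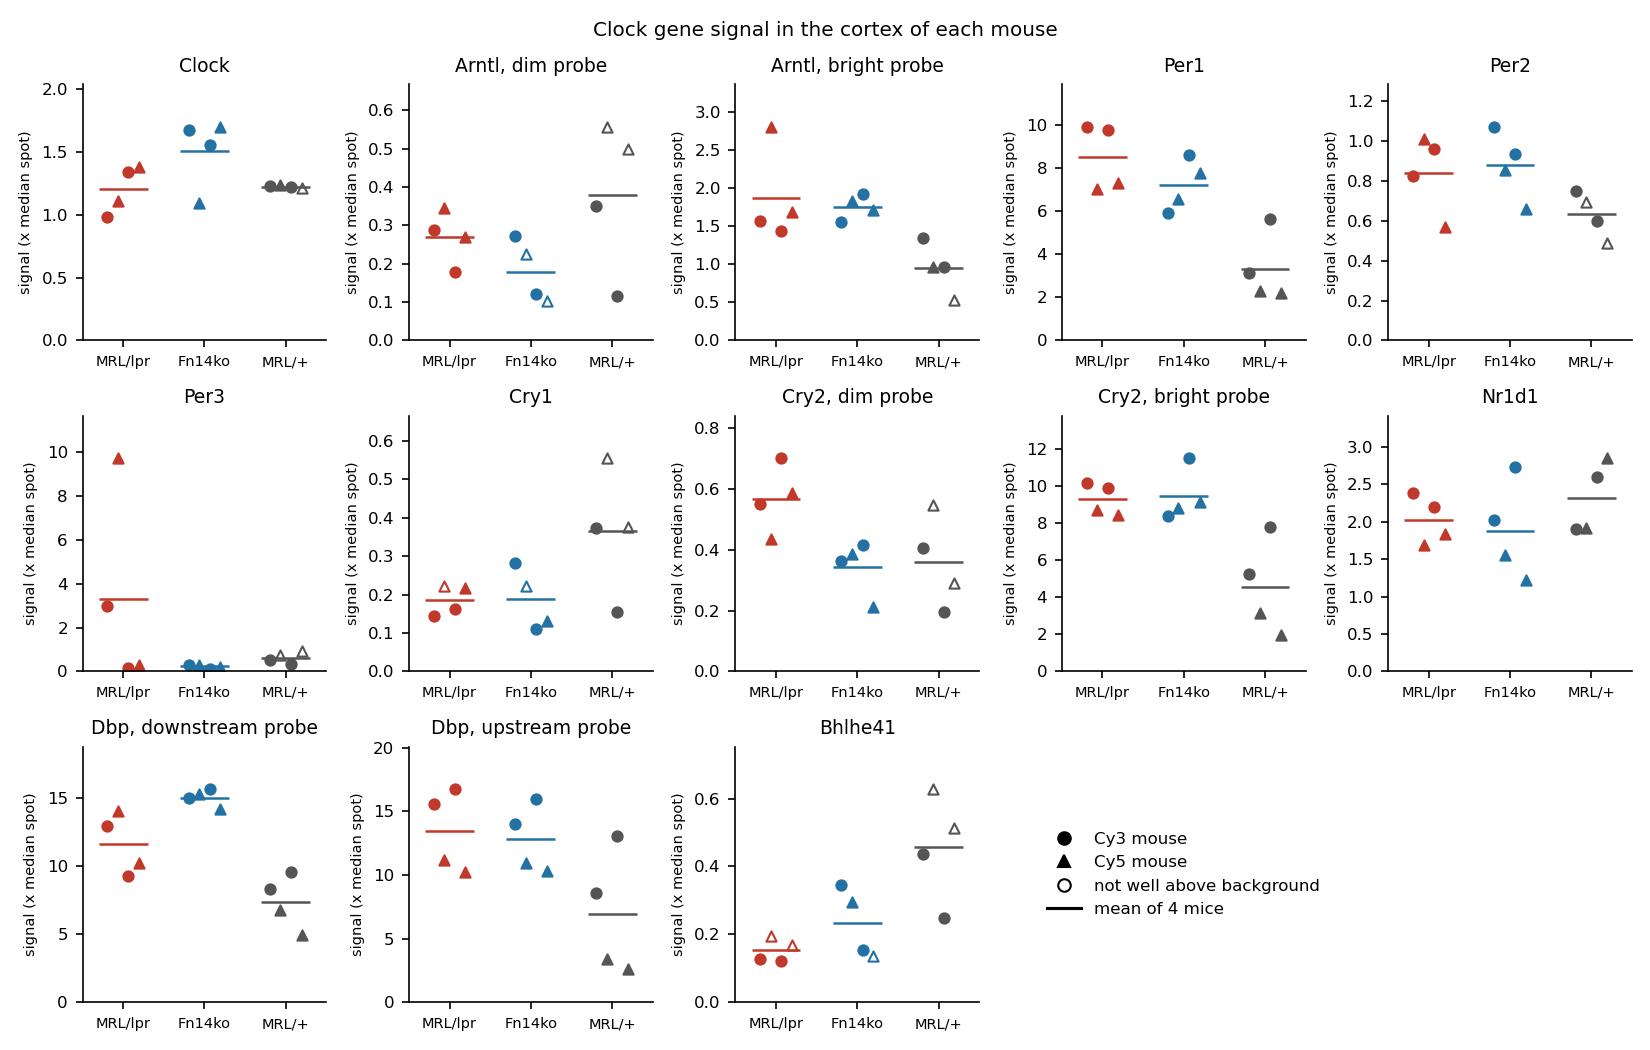
Signal of each of the 13 clock probes in each mouse, by group, on linear axes from 0 in multiples of the median retained spot. Circles are Cy3 and triangles Cy5 mice, open symbols were not well above background, and lines are means of 4 mice. Per1 is 7.02 or higher in every MRL/lpr mouse and 5.61 or lower in every MRL/+ mouse, and Per3 is high in 2 MRL/lpr mice of the same array.

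Per1, a repressor of the loop and a Period gene that also answers to stimuli, was read by a probe at chr11:68923364-68923423 (mm9, plus strand). Its signal was 9.88, 7.02, 9.76 and 7.28 in MRL/lpr replicates 1 to 4, 5.93, 6.55, 8.60 and 7.75 in Fn14ko, and 3.14, 2.27, 5.61 and 2.17 in MRL/+. Every MRL/lpr and every Fn14ko mouse lay above every MRL/+ mouse, and the MRL/lpr and Fn14ko mice overlapped. Per1 was 2.74-fold higher in MRL/lpr than in MRL/+ mice (log2 1.46, SE 0.29, 95% interval 0.84 to 2.08, limma adjusted p = 0.0064). The exact permutation p was 0.0286, the smallest that 4 against 4 mice allow. This permutation exchanges single mice and takes no account of shared arrays or dye, which the limma fit does. The call held with each of the 12 mice left out in turn (adjusted p 0.0032 to 0.042). Without the Cy5 mice of MRL/+ the log2 difference was 1.11 (adjusted p = 0.060), in the Cy3 mice alone it was 1.22 (0.022), and with Agilent's processed signal it was 0.45 (0.11). The second Per1 probe, tested only when dim spots were kept, had the opposite sign (-0.69, adjusted p = 0.16), at 0.343, 0.529, 0.363 and 0.536 in MRL/lpr mice and 0.835, 0.890, 0.438 and 0.726 in MRL/+ mice, which overlapped.

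Cry2, which encodes one of the 2 Cryptochromes that close the loop, was read by 2 probes whose values differed. The bright probe, at chr2:92243807-92243866 (mm9, minus strand), gave 10.2, 8.71, 9.93 and 8.44 in MRL/lpr mice, 8.38, 8.82, 11.5 and 9.13 in Fn14ko mice and 5.26, 3.15, 7.78 and 1.95 in MRL/+ mice. Its MRL/+ values lay below those of both other groups without overlap, and the lowest of them were the pair of Cy5 mice. The log2 difference of MRL/lpr from MRL/+ was 1.22 (SE 0.36, limma adjusted p = 0.038). The dim Cry2 probe, at chr2:92251417-92251476, averaged 0.568 ± 0.110 (SD, n = 4) in MRL/lpr mice, 0.344 ± 0.0909 in Fn14ko mice and 0.360 ± 0.152 in MRL/+ mice, where only 2 of 4 mice were well above background. It was not called in MRL/lpr against MRL/+ mice, with a log2 difference of 0.74 (adjusted p = 0.17). The bright probe's call was lost without the Cy5 mice of MRL/+ (0.63, adjusted p = 0.18) and with the processed signal (0.33, adjusted p = 0.12), and it was kept with 6 of the 12 mice left out in turn (adjusted p 0.0080 to 0.13).

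Dbp, a PAR bZIP factor that carries the rhythm to output genes and itself cycles strongly, was read by 2 probes on the same transcript. At the upstream probe, chr7:52965322-52965381 (mm9, plus strand), the signal was 15.6, 11.2, 16.7 and 10.3 in MRL/lpr mice, 14.0, 10.9, 15.9 and 10.3 in Fn14ko mice and 8.59, 3.39, 13.1 and 2.64 in MRL/+ mice. Within each group both Cy3 mice exceeded both Cy5 mice. MRL/+ replicate 3 fell among the mice of the other groups, and the Cy5 mice of MRL/+ were the lowest of all 12. The probe was called, with a log2 difference of 1.22 between MRL/lpr and MRL/+ mice (SE 0.35, limma adjusted p = 0.036), and kept its call with 7 of the 12 mice left out in turn (adjusted p 0.0080 to 0.16). At the downstream probe, chr7:52965461-52965520, the signal was 12.9, 14.0, 9.27 and 10.2 in MRL/lpr mice, 15.0, 15.3, 15.6 and 14.2 in Fn14ko mice and 8.30, 6.74, 9.55 and 4.92 in MRL/+ mice. There the MRL/lpr and MRL/+ mice overlapped, and the log2 difference of 0.68 was not called (adjusted p = 0.084). Without the Cy5 mice of MRL/+ neither Dbp probe was called, at log2 differences of 0.58 (adjusted p = 0.20) and 0.35 (0.45), and with Agilent's processed signal both differences lay below 0, at -0.054 (0.82) and -0.49 (0.087).

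Bhlhe41 (DEC2), which competes with CLOCK and BMAL1 for E-boxes, was the member that fell. Its probe at chr6:145811275-145811334 (mm9, minus strand) gave 0.129, 0.195, 0.121 and 0.170 in MRL/lpr mice, 0.346, 0.296, 0.156 and 0.138 in Fn14ko mice and 0.437, 0.628, 0.247 and 0.514 in MRL/+ mice. The MRL/lpr mice lay below all MRL/+ mice, but the probe is in the dimmest quartile of all tested, and only 2 of 4 mice in each of the MRL/lpr and MRL/+ groups were well above background. The log2 difference was -1.52 (SE 0.44, limma adjusted p = 0.035). The call was kept with 3 of the 12 mice left out and lost with the other 9 (adjusted p 0.013 to 0.16), and without the Cy5 mice of MRL/+ the difference was -1.21 (0.25).

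**Figure D2:**
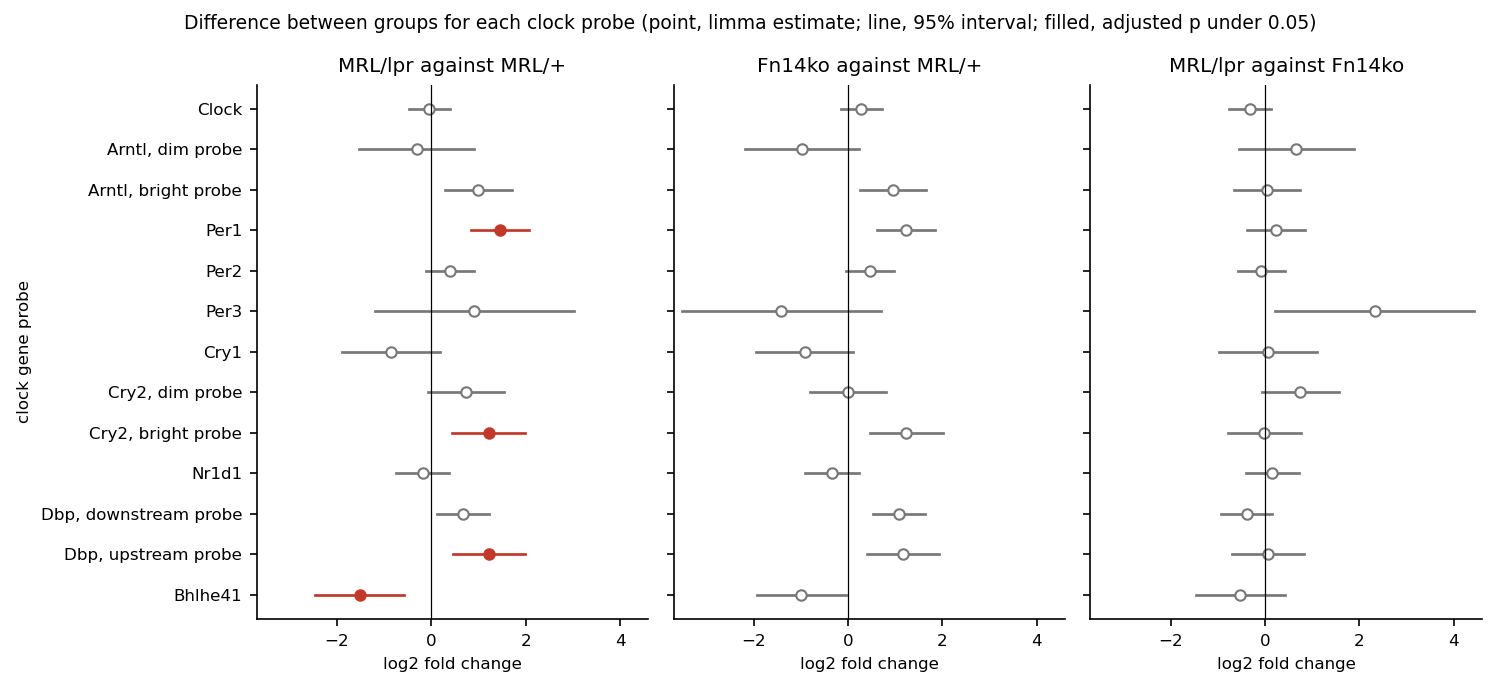
Log2 difference between groups for each clock probe, with its 95% interval from limma, in the 3 comparisons. Filled points have an adjusted p under 0.05. The called probes, Per1 at 1.46, Cry2 and Dbp at 1.22 and Bhlhe41 at -1.52, are all in MRL/lpr against MRL/+, and in MRL/lpr against Fn14ko most points lie near 0, with Per3 at 2.32 and a wide interval.

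The activators of the loop gave no call. The bright probe of Arntl, at chr7:120457261-120457320 (mm9, plus strand), gave 1.57, 2.81, 1.43 and 1.69 in MRL/lpr mice, 1.56, 1.83, 1.92 and 1.71 in Fn14ko mice and 1.35, 0.965, 0.964 and 0.538 in MRL/+ mice. Both lpr groups lay above all MRL/+ mice, yet the log2 differences of 1.00 for MRL/lpr (adjusted p = 0.057) and 0.95 for Fn14ko (adjusted p = 0.14) were not called. This bright probe of Arntl, a gene of opposite phase, lay on the same side of MRL/+ as the Per1 and Dbp probes, and the part of sampling time in this was not tested. The dim Arntl probe, at chr7:120386502-120386561, was 0.177 to 0.344 in MRL/lpr and 0.115 to 0.556 in MRL/+ mice, with a log2 difference of -0.31 (adjusted p = 0.70). Its sign turned with Agilent's processed signal (1.66, adjusted p = 0.043) and with loess and quantile scaling (0.65, adjusted p = 0.0090). Clock, at chr5:76641377-76641436 (mm9, minus strand), had the lowest residual SD of the 13 probes (0.23 on the log2 scale) and was read at 0.983 to 1.38 in MRL/lpr mice, 1.10 to 1.70 in Fn14ko mice and 1.21 to 1.24 in MRL/+ mice. Its log2 difference of MRL/lpr from MRL/+ was -0.04, with a 95% interval of -0.48 to 0.40.

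Among the other repressors, Nr1d1 (chr11, mm9, minus strand, 98630526 to 98631028, a span longer than the probe itself) was 2.39, 1.69, 2.20 and 1.83 in MRL/lpr mice, 2.02, 1.56, 2.73 and 1.22 in Fn14ko mice and 1.91, 1.92, 2.60 and 2.85 in MRL/+ mice. The 3 groups overlapped, and MRL/lpr differed from MRL/+ by -0.18 on the log2 scale (95% interval -0.75 to 0.38, adjusted p = 0.62). Nr1d1 is among the most strongly cycling genes of the loop. Its signal was not lower in the Cy5 than in the Cy3 mice of MRL/+, unlike that of Dbp. The part of sampling time or dye in either was not tested. Per2 (chr1:93313046-93313105, minus strand) was 0.570 to 1.01 in MRL/lpr mice, 0.658 to 1.07 in Fn14ko mice and 0.489 to 0.751 in MRL/+ mice, with a log2 difference of MRL/lpr from MRL/+ of 0.40 (95% interval -0.11 to 0.90, adjusted p = 0.23). Cry1 (chr10:84594731-84594790, minus strand) was dim, at 0.144 to 0.221 in MRL/lpr mice, 0.111 to 0.283 in Fn14ko mice and 0.154 to 0.555 in MRL/+ mice, and was well above background in 8 of the 12. It differed by -0.85 between MRL/lpr and MRL/+ mice (adjusted p = 0.21).

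Per3, the third Period gene, stood apart on a single array. Its probe (chr4:150379256-150379315, mm9, minus strand) gave 3.00 and 9.72 in MRL/lpr replicates 1 and 2, which share an array, but 0.171 and 0.277 in replicates 3 and 4, 0.131 to 0.315 in Fn14ko and 0.326 to 0.931 in MRL/+ mice. On that array the 32 spots around the Per3 spot were raised as well, with a median log2 deviation from their own 12-sample medians of 4.45 in replicate 1 and 5.79 in replicate 2. No other retained clock spot had neighbours that deviated by more than 1 in any mouse, and the spots around the lost Per1 probe deviated by 1.12 and 1.29 in the Cy5 mice of MRL/+. Within that limit, the spots around Bhlhe41 deviated by -0.64, -0.34, -0.81 and -0.45 in MRL/lpr mice and by -0.16 to 0.08 in MRL/+, the direction of its call. Those around the called probes of Per1, Cry2 and Dbp were also below 0 in every MRL/lpr mouse (-0.66 to -0.07), opposite to their calls. The part of the surroundings in the calls was not tested. For Per3 the log2 difference of MRL/lpr from MRL/+ was 0.91 (SE 0.98, adjusted p = 0.51) with all mice and -1.41 (adjusted p = 0.13) without the array. Against Fn14ko it was 2.32 (adjusted p = 0.24) with all mice and 0.01 (adjusted p = 1.00) without it.

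**Figure D3:**
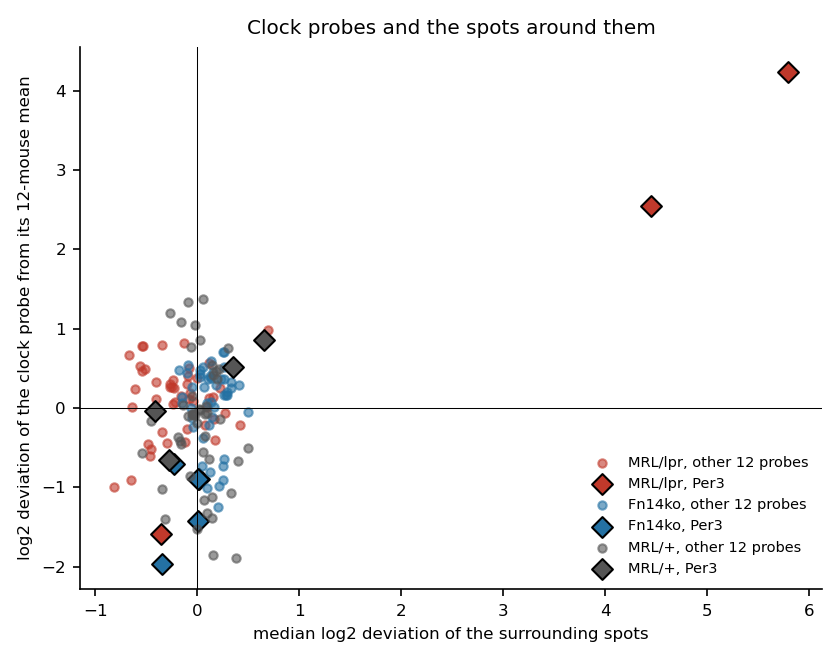
Log2 deviation of each clock probe from its 12-mouse mean, against the median log2 deviation of the spots around it, for 13 probes in 12 mice. Diamonds are Per3. The pair of MRL/lpr diamonds at the right are replicates 1 and 2, whose surrounding spots deviate by 4.45 and 5.79, while every other point lies between -0.81 and 0.69 on that axis.

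In Fn14ko against MRL/+ cortex, 0 of the 13 clock probes were called by limma, against 1.09% of all probes. At an unadjusted p under 0.05 the count was 6 of 13, against 23.0% of all probes, and the methods' t-test gave 4 of 13 unadjusted, against 15.7% of all probes, and 0 after adjustment. The groups did not overlap for 5 probes, against 14.0% of all probes. The differences of Per1 (log2 1.22, adjusted p = 0.060), the downstream Dbp probe (1.07, 0.063), the upstream one (1.16, 0.11), the bright Cry2 probe (1.24, 0.10) and the bright Arntl probe (0.95, 0.14) had the signs seen in MRL/lpr mice, and both comparisons use the same MRL/+ mice. Bhlhe41 differed by -0.997 (adjusted p = 0.20) and Nr1d1 by -0.34 (95% interval -0.91 to 0.22, adjusted p = 0.39). When each channel was divided by its 75th percentile in place of the median, 4 of the probes were called, those of Per1, Dbp (both) and Cry2 (the bright one), against 3.96% of all probes. Of all calls 20.8% were higher, against 36.9% with plain background subtraction, 41.9% with loess scaling and 11.3% with the processed signal.

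In MRL/lpr against Fn14ko cortex, the comparison of the groups bred together, 0 of the 13 clock probes were called by limma, against 4.03% of all probes. At an unadjusted p under 0.05 it was 1 of 13, the Per3 probe with the raised surroundings, against 17.3% of all probes, and the methods' t-test gave 1 of 13 unadjusted, the dim Cry2 probe, against 21.2% of all probes, and 0 after adjustment. The log2 difference was 0.23 for Per1 (95% interval -0.39 to 0.85), 0.06 for the upstream Dbp probe (-0.70 to 0.83), -0.02 for the bright Cry2 probe (-0.79 to 0.76), 0.04 for the bright Arntl probe (-0.66 to 0.75) and 0.16 for Nr1d1 (-0.41 to 0.72). The upper ends of the Per1, upstream Dbp and bright Cry2 intervals lie below the differences of 1.46, 1.22 and 1.22 between MRL/lpr and MRL/+ mice. The intervals of those differences begin at 0.84, 0.46 and 0.45 and overlap with them. The comparisons were not tested against each other. Of all calls 56.4% were higher, against 23.1% with loess scaling. The groups did not overlap for 2 probes, against 19.5% of all probes. The downstream Dbp probe was lower in every MRL/lpr mouse than in every Fn14ko mouse (-0.39, adjusted p = 0.48), and the dim Cry2 probe was higher in every MRL/lpr mouse (0.75, adjusted p = 0.33).

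The clock probes of the dimmest signal quartile lay below 0 against MRL/+ in both lpr groups and those of the brightest lay above 0, and the medians of all probes ran the same way. In MRL/lpr against MRL/+ mice the median log2 difference of all tested probes ran from -0.89 in the dimmest quartile through -0.25 and 0.09 to 0.24 in the brightest. For Fn14ko against MRL/+ it ran from -0.77 to 0.21, and for MRL/lpr against Fn14ko it stayed between -0.16 and -0.03. The probes of Per1, Dbp and the bright one of Cry2 are in the brightest quartile, and those of Bhlhe41, Cry1 and the dim one of Arntl in the dimmest. Without the Cy5 mice of MRL/+ the medians narrowed to -0.51 in the dimmest and 0.05 in the brightest quartile. The part of this slope in the calls was not tested.

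**Figure D4:**
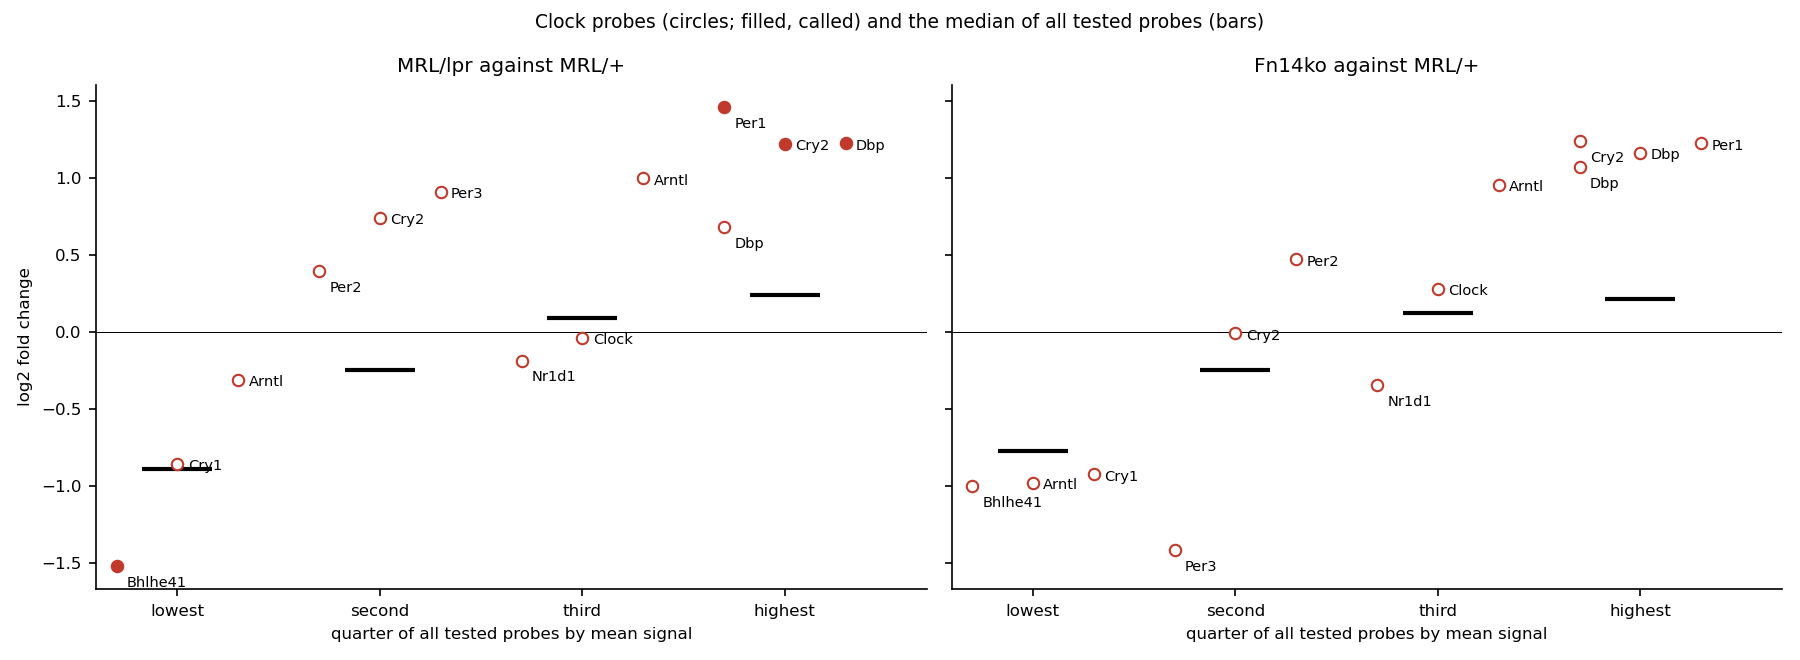
Log2 difference from MRL/+ of each clock probe (circles, filled where called) and the median of all tested probes (bars) in each quartile of mean signal, for MRL/lpr and for Fn14ko mice. In MRL/lpr mice the bars climb from -0.89 to 0.24, Bhlhe41 at -1.52 lies in the lowest quartile and Per1 at 1.46 in the highest.

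Mice of one group can differ in sampling time as well, and a phase difference was therefore set for each mouse, the mean log2 deviation of Per1, Per2, Per3, Nr1d1 and Dbp minus that of Arntl and Clock. It is a description with no test, and the probes of a gene, also the 2 of Arntl, were averaged first. It was 0.94, 0.73, 0.07 and -0.37 in MRL/lpr replicates 1 to 4, -0.19, -0.05, 0.01 and -0.29 in Fn14ko and -0.33, -0.55, 0.34 and -0.30 in MRL/+. The first pair of MRL/lpr values holds the raised Per3 spot. Without Per3 the group means were 0.17 ± 0.36 (SD, n = 4) in MRL/lpr mice, 0.16 ± 0.24 in Fn14ko mice and -0.33 ± 0.57 in MRL/+ mice, and the groups overlapped. Within every group the values without Per3 were lower in the Cy5 than in the Cy3 mice on average, with the lowest, -0.79 and -0.62, in the Cy5 mice of MRL/+. With Per3 kept in, the mean phase difference was 0.34 ± 0.60 in MRL/lpr mice, -0.13 ± 0.13 in Fn14ko mice and -0.21 ± 0.39 in MRL/+ mice. With Agilent's processed signal, which is corrected for dye within the array, it was -0.02 ± 0.64, -0.14 ± 0.18 and 0.16 ± 0.49. MRL/+ thus went from the lowest mean to the highest, and the groups overlapped in both.

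**Figure D5:**
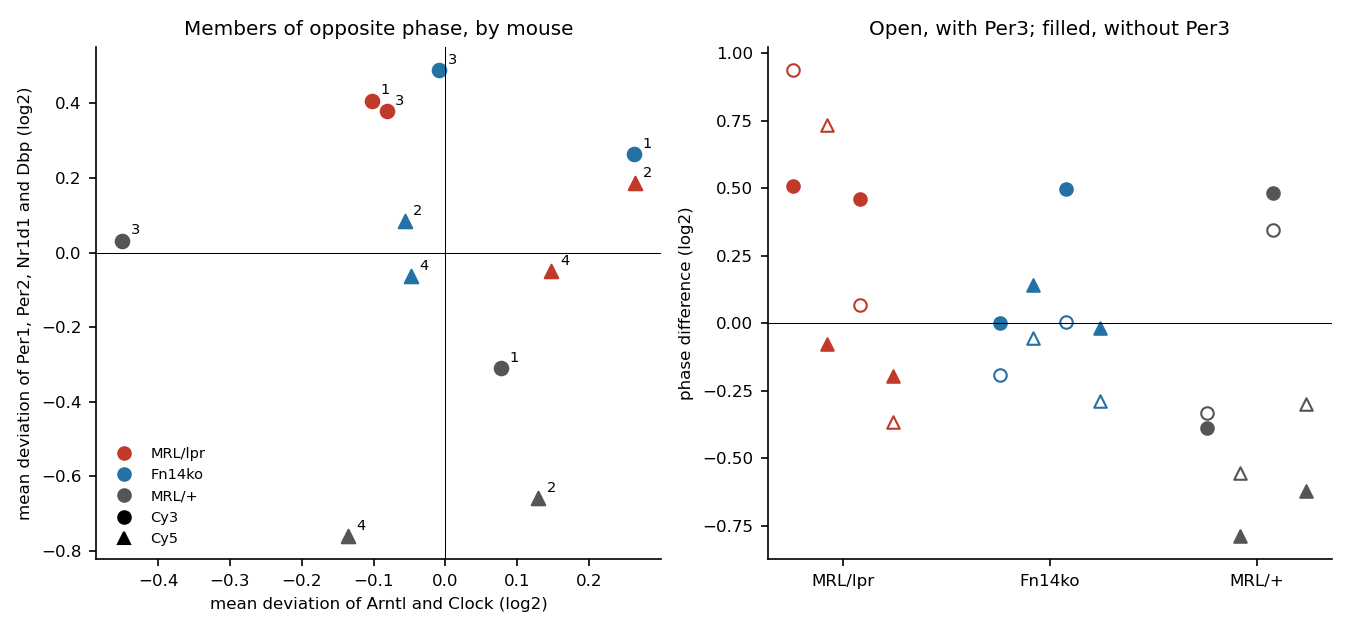
Left, mean log2 deviation of Per1, Per2, Nr1d1 and Dbp against that of Arntl and Clock in each of the 12 mice, numbered by replicate. Right, the phase difference of each mouse with Per3 (open) and without it (filled). Circles are Cy3 and triangles Cy5 mice. The probes of a gene are averaged, including the bright and the dim one of Arntl. The Cy5 mice of MRL/+ have the lowest filled values, -0.79 and -0.62.

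Across the 12 mice, with group and dye means removed, Dbp was set against each of the other 9 members, with the probes of a gene averaged. Arntl, of opposite phase, gave Pearson's r = -0.09 (Spearman's rho 0.03, exact permutation p = 0.81 and 0.88), and Nr1d1, of like phase, gave r = -0.48 (rho -0.39, exact permutation p = 0.55 and 0.61). The 2 Arntl probes went opposite ways, at r = 0.73 for the bright and -0.53 for the dim one. Per1 gave the highest value of the 9 genes, r = 0.70 (rho 0.62, exact permutation p = 0.14 and 0.16, adjusted p = 0.63 and 0.70). It fell to 0.25 without the 2 mice farthest from the median of Dbp, MRL/+ replicates 3 and 4, and to 0.05 without the 4 MRL/+ mice. The lowest p was that of Clock, r = -0.26 (rho -0.45, exact permutation p = 0.047 for both, adjusted p = 0.42 for both). The 64 arrangements within group and dye allow no p under 0.0156, so 1 gene alone could not pass after adjustment over 9. The 5 probes of other genes most like Dbp were those of Pantr1, Cldn10 and 3 probes named only by an identifier, with r of 0.98 to 0.99 over 12 mice. The clock probe nearest to Dbp was the bright one of Cry2, at r = 0.94 and rank 160 of 22417 probes, while the dim one gave -0.47. With both probes averaged, Cry2 gave r = 0.31, which was -0.17 without the 2 farthest mice and -0.03 without the 4 MRL/+ mice. The dye mean removed was common to all groups, so a dye gap particular to MRL/+ stays in the values over 12 mice. Its part in these correlations was not tested. The SD over the 4 mice of a group, taken with dye differences left in, was largest in MRL/+. Its median over the 13 clock probes was 0.63 on the log2 scale in MRL/+, 0.30 in Fn14ko and 0.31 in MRL/lpr mice. The medians of all probes were 0.40, 0.27 and 0.23 in the same order. Spread among mice and dye cannot be told apart in these SDs.

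The remaining genes of the pathway were read in the same way, beside the 15.0% of all probes called in MRL/lpr against MRL/+ and the 4.03% called in MRL/lpr against Fn14ko mice. For Fn14ko against MRL/+ mice that share was 1.09%. Of 7 probes of 5 partner genes (Npas2, Arntl2 and the ROR receptors), 1 rose in MRL/lpr against MRL/+ mice. That was 1 of the 2 probes of Rorb, a receptor that activates Arntl and marks layer IV of the cortex, at 1.61, 1.59, 1.32 and 1.84 in MRL/lpr mice, 0.675, 0.702, 0.601 and 0.662 in Fn14ko mice and 0.773, 0.928, 0.833 and 0.924 in MRL/+ mice. It was higher in MRL/lpr than in MRL/+ (log2 0.87, limma adjusted p = 0.0037) and than in Fn14ko mice (1.26, adjusted p = 0.00089), while the other Rorb probe was not called in either (0.24, adjusted p = 0.56, and 0.55, adjusted p = 0.37). Npas2, which can stand in for Clock in the forebrain, was not called (-0.67, adjusted p = 0.43). Of 9 probes of 6 further repressors, 2 were called in MRL/lpr against MRL/+ mice. Bhlhe40 rose, at 8.56, 6.61, 9.56 and 7.50 in MRL/lpr mice, 4.26, 5.84, 6.67 and 5.52 in Fn14ko mice and 3.25, 1.96, 3.35 and 1.25 in MRL/+ mice, without overlap between either lpr group and MRL/+ (log2 1.81, adjusted p = 0.0034 for MRL/lpr, and 1.28, adjusted p = 0.070 for Fn14ko). Cipc, an inhibitor of CLOCK, fell at the dimmer of its 2 probes (-0.74, adjusted p = 0.039). The brighter Cipc probe was not called and averaged 2.68 in MRL/lpr and 2.67 in MRL/+ mice. Nr1d2, the close relative of Nr1d1, gave 0.11 and 0.34 at its 2 probes in MRL/lpr against MRL/+ mice (adjusted p = 0.74 and 0.22), and 1 of them rose against Fn14ko (0.85, adjusted p = 0.028). The PAR bZIP factors Tef (0.69, adjusted p = 0.074) and Hlf (0.12, adjusted p = 0.82), relatives of Dbp, and the other outputs gave 0 of 7 called in that comparison, and 0 of 7 in the other 2. Of 16 probes of 8 genes for the turnover of clock proteins, 1 fell in MRL/lpr against MRL/+ mice, 1 of the 3 probes of Gsk3b (-0.94, adjusted p = 0.022), well above background in only 2 MRL/+ mice. The other Gsk3b probes differed by 0.09 (adjusted p = 0.86) and -0.02 (adjusted p = 0.96).

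Because Per1 also answers to neuronal activity and to corticosteroids, genes known for each response were read beside it. Calls in MRL/lpr against MRL/+ mice in the lists below stand beside 15.0% of all probes, 5.69% higher and 9.30% lower. Of 10 stimulus genes, 5 rose and 1 fell in MRL/lpr against MRL/+ mice. Those that rose were Fos (log2 1.67, limma adjusted p = 0.0093), Egr1 (1.98, 0.011), Egr2 (1.90, 0.0038), Arc (1.69, 0.0092) and Nr4a1 (1.56, 0.042), and Ier2 fell (-1.22, 0.018). Their summed signal was 118.7 to 171.8 in MRL/lpr mice, 46.5 to 89.2 in Fn14ko and 27.3 to 78.6 in MRL/+ mice. That sum is carried by Arc, Egr1 and Nr4a1, whose means in MRL/lpr mice were 65.6, 32.5 and 29.1, and the other genes did not all follow it. Junb averaged 0.286 in MRL/lpr mice, 0.359 in Fn14ko mice and 0.555 in MRL/+ mice and was not called, and Ier2 averaged 0.239, 0.237 and 0.550. Without the Cy5 mice of MRL/+, 3 of the 10 rose and 0 fell, beside 5.08% of all probes called, while the median log2 difference of the 10 went from 1.33 to 1.51. In Fn14ko against MRL/+ mice 0 of 10 were called, and in MRL/lpr against Fn14ko 1 was, Arc (1.38, adjusted p = 0.048), beside 1.09% and 4.03% of all probes. Of 5 corticosteroid-response genes, 2 fell in MRL/lpr against MRL/+ mice, Fkbp5 (-0.98, adjusted p = 0.031) and Zbtb16 (-0.71, adjusted p = 0.024), and 0 rose. Fkbp5 was also lower in MRL/lpr than in Fn14ko mice (-1.10, limma adjusted p = 0.039). Without the Cy5 mice of MRL/+ 0 of the 5 were called in either comparison, beside 5.08% of all probes against MRL/+ and 2.81% against Fn14ko. The median log2 difference of the 5 was -0.71 against MRL/+ with or without those mice. Against Fn14ko it was -0.65, a value those mice do not enter. The summed signal of the 5 genes was 21.9 to 28.1 in MRL/lpr mice, 32.6 to 43.5 in Fn14ko mice and 30.2 to 33.5 in MRL/+ mice. The 4 blood genes summed to 118.3 to 301.0 in MRL/lpr mice, 39.6 to 120.6 in Fn14ko and 34.1 to 61.7 in MRL/+, with 2 of 4 called higher in MRL/lpr against MRL/+. The 4 choroid plexus genes measured summed to 6.43 to 98.6, 13.9 to 181.8 and 16.6 to 266.0 in the same order. For the other marker lists the calls in MRL/lpr against MRL/+ mice were 4 of 8 probes for cortical excitatory neurons (1 higher, 3 lower), 0 of 7 for striatum, 0 of 3 for cerebellum, 1 of 6 for hypothalamus (Vip, 1.26, adjusted p = 0.0031), 0 of 1 for lymphocytes, 1 of 8 for microglia, 1 of 7 for astrocytes and 3 of 8 for myelin. Of the 6 hypothalamus probes 4 lay below 0 in that comparison, with a median log2 difference of -0.60. The striatal genes summed to 15.2 to 25.8 in MRL/lpr mice, 11.3 to 117.9 in Fn14ko mice and 9.31 to 13.03 in MRL/+. The part of activity, corticosteroids, blood or choroid plexus in the clock values was not tested.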

How the data were processed

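The deposited files are the scanner output of 6 two-colour Agilent arrays, 2 mice on each. They hold the mean foreground and median local background intensity of each spot, quality marks and a processed signal, made by the authors with Agilent Feature Extraction 12.1.0.3 per the file headers, with probes placed on mm9. Control spots, 1952 spots marked uneven or outlying, and 17781 with a foreground below 2-fold of the background in at least 1 of 12 samples were dropped, which kept 24255 spots, or 22419 probes. Background was corrected with normexp (offset 50) in limma 3.58.1 under R 4.3.3. Signals were scaled to the median retained spot of their channel, and spots of a probe were averaged. Log2 values were fitted with group and dye, array as a random block, a trend in the variance and Benjamini-Hochberg adjustment over all 22419 probes. Other pathway genes were named where called, with 6 fixed names added. The members and lists were chosen with earlier results of these data known. On simulated data for MRL/lpr against MRL/+ (22419 probes), 30% of log2 changes of 1 and 75% of those of 2 were recovered. The number of arrays limits the precision. Replicates are separate mice.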

Additional observations from a re-analysis of the deposited data

How the results depend on the processing

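Per1 kept its sign in 29 of 29 alternatives in MRL/lpr against MRL/+ and its call in 25. Among these, settings that changed only the model terms or left out a mouse of the third group could not alter the difference, only its test. Percentages in brackets are the shares of all tested probes called under the same setting. The 4 clock calls in MRL/lpr against MRL/+ became 7 with plain background subtraction (31.6%) and 2 with Agilent's processed signal (17.7%). They became 0 with no filter on dim spots (0.0414%), 2 with only those groups in the fit (14%) and 0 with the methods' t-test after adjustment (4.08%). Alternatives chosen after seeing the data gave 0 without the Cy5 mice of MRL/+ (5.08%), 1 with Cy3 mice only (8.24%) and 1 without the first MRL/lpr array (5.77%). With single mice left out the count ran from 1 to 6 (4.58% to 33.3%). It was 1, Per1, without MRL/lpr replicates 2 or 4, Fn14ko replicates 2 or 3, or MRL/+ replicate 4. The 0 calls in Fn14ko against MRL/+ became 7 with background subtraction (19.6%), 5 with loess and quantile scaling (10.4%) and 4 with the 75th percentile (3.96%). There were 4 on probes well above background in all mice (12.4%), where only Per1, Nr1d1, both Dbp probes and the bright Cry2 probe were left. The count was 1 without the dye term (1.83%), 5 without the array block (12.9%) and 6 with the array pair number (18.9%). It was 3 with only those groups (2.63%) and 4 with the unadjusted t-test (15.7%). With single mice left out it ran from 0 to 5. It was 1 without MRL/lpr replicate 2 (1.55%) and 4 without Fn14ko replicate 1 (8.2%). Without MRL/+ replicate 1 it was 1 (1.91%), and without MRL/+ replicate 3 it was 5 (15.6%). The 0 calls in MRL/lpr against Fn14ko became 1 with background subtraction (15.4%), processed signal (10.6%), loess (18.5%) or the unadjusted t-test (21.2%). They stayed at 0 with every mouse left out in turn (1.78% to 5.09%). The replicate block gave 6, 5 and 0 calls in the 3 comparisons (33.7%, 8.81% and 8.17%). Same-numbered mice correlated at -0.29 to 0.46 after group and dye means were removed, so the numbers were not taken as pairs. Of 1107 alternative values of single clock probes 65 had another sign than the main value, 19 of them in MRL/lpr against MRL/+. There these included the dim Arntl probe (1.66 with processed signal, 0.65 with loess), both Dbp probes (-0.0536 upstream and -0.49 downstream with processed signal) and Per3 (-1.41 without the first MRL/lpr array), and in Fn14ko against MRL/+ the dim Cry2 probe (0.89 with loess). Non-overlapping probes in MRL/lpr against Fn14ko became 4 with processed signal and 1 with the 75th percentile, and the mean phase difference of Fn14ko mice 0.16 without Per3. The 75th percentile moved the median log2 difference of all probes from -0.15 to -0.38 in MRL/lpr against MRL/+ and from -0.14 to -0.39 in Fn14ko against MRL/+. Over all probes the calls, 3361, 245 and 903 in the 3 comparisons, ran over the alternatives from 16 to 9303, from 0 to 4393 and from 38 to 4757. The causes were not tested.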
